A study of Mus musculus with 4 samples.

Results

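The genes described here are 32 genes of protein folding in the endoplasmic reticulum (ER) and of the unfolded protein response. They were taken by symbol from a fixed list of ER chaperones, oxidases, sensors and degradation factors, and all 32 were found among the 17921 genes of the deposited table. RNA sequencing measured them in Th17 cells of the mouse, a class of helper T cell that secretes interleukin 17. The KO libraries came from 2 mice lacking PRAK, a kinase activated by p38 whose gene is Mapkapk5, and the WT libraries from 2 wild-type mice. In both genotypes, enriched naive CD4+ T cells were differentiated towards Th17 cells in vitro for 72 h and the whole culture was taken, per the labels. Each library is 1 mouse, and KO 1, KO 2, WT 1 and WT 2 carry the mouse numbers of the labels. The labels do not give the strain, sex or age of the mice, the polarising agents, or how the deletion was made. The comparison bears on a series that, by its title, asks how PRAK acts on Th17 differentiation, redox balance and glycolysis.

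The ER folds secreted and membrane proteins. Hspa5 (BiP) and its helpers bind unfolded chains, calnexin and calreticulin hold glycoproteins, and protein disulfide isomerases, re-oxidised by Ero1 oxidases, form disulfide bonds with hydrogen peroxide as a by-product. When unfolded protein builds up, the sensors IRE1 (Ern1), ATF6 and PERK (Eif2ak3) switch on the unfolded protein response. IRE1 splices the Xbp1 mRNA, and XBP1 and ATF6 then raise the genes for chaperones and for ER-associated degradation, which returns misfolded proteins to the cytosol. Cytokine-secreting T cells depend on this machinery.

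Total expected counts, the authors' estimates of reads per gene, lay between 19418012 and 20125124 per library. Levels are given as CPM, counts per 1000000 counts, after TMM scaling, and tests are edgeR quasi-likelihood tests with Benjamini-Hochberg adjustment over 12680 genes, called at an adjusted p under 0.05. Mapkapk5 gave 20.04 and 21.6 CPM in the KO libraries 1 and 2, against 35.6 in WT 1 and 38.4 in WT 2 (adjusted p = 0.0194, edgeR). That call was lost without WT 1 (0.103) or WT 2 (0.188). Which exons the knockout lacks is not in the labels. T cell genes were high in every library, with Cd3e at 165 and 226 CPM in KO and 228 and 212 in WT, and Cd4 at 516 and 940 in KO and 739 and 854 in WT. The T cell and Th17 markers summed to 6819 and 5544 CPM in KO against 8150 and 7807 in WT. Of the 18 tested 1 rose (Ccr6) and 1 fell (Il23r), where 5.14% of all genes tested were called higher and 8.23% lower. At an unadjusted p under 0.05 (edgeR), 1 was higher and 3 lower, against 1914 and 2100 of all 12680 genes. The median log2 fold change of these markers was -0.20.

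Markers of other cell types were also present and partly moved with genotype or with single libraries. Myeloid markers summed to 481 and 631 CPM in KO 1 and KO 2, against 126 and 226 in WT 1 and WT 2, and 9 of the 15 tested rose (smallest p-values in Mpeg1, Itgax, Cybb and Csf1r), or 14 at an unadjusted p under 0.05. CD8 T and NK cell markers summed to 946 and 537 CPM in KO against 200 and 380 in WT, where 1 of 10 tested (Nkg7) rose, 6 were higher at an unadjusted p under 0.05, and Ncr1 was at or near 0 in all libraries. B and plasma cell markers summed to 481 and 499 CPM in KO against 328 and 439 in WT. Of these, 1 of 13 tested rose (Ms4a1), 4 were higher at an unadjusted p under 0.05, and the plasma cell gene Tnfrsf17 was listed at 0 in 3 libraries. Erythroid and platelet markers summed to 3.34 and 6.91 CPM in KO against 4.15 and 9.62 in WT, with 0 of 5 tested called (edgeR; 1 higher at an unadjusted p under 0.05). No tested marker of these 4 lists was lower at that threshold, and over all genes 1914 of 12680 were higher. The part of such cells in the ER gene values was not tested. In these bulk libraries a lower share of cells of a type and less RNA per cell cannot be told apart.

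The ER genes did not move as a group. The disulfide oxidase gene Ero1l was 6.39-fold lower than in WT, P4hb and Xbp1 fell by smaller amounts, and no member passed the test in the other direction. All 32 members passed the filter on low counts, with 185 to 26815 counts per library. Of them 3 were called lower and 0 higher, where 8.23% of all genes tested were called lower, 5.14% higher and 13.4% in either direction. At an unadjusted p under 0.05 there were 5 lower and 2 higher members of 32 (edgeR), against 2100 lower and 1914 higher of all 12680 genes. DESeq2 called 4 lower (P4hb, Ero1l, Edem2 and Xbp1) and 2 higher (Dnajb11 and Herpud1), against 10.3% and 7.79% of all genes. The median log2 fold change of KO over WT was -0.02 over the members and 0.02 over all genes tested, and 18 of 32 members lay within 0.25 of no change, as did 5375 of all genes tested. The KO and WT values did not overlap for 8 members that were higher and 9 that were lower in KO, where the shares over all genes were 31.7% and 31.4%. Scaling by library size alone raised the medians to 0.08 for the members and 0.12 for all genes.

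**Figure D1:**
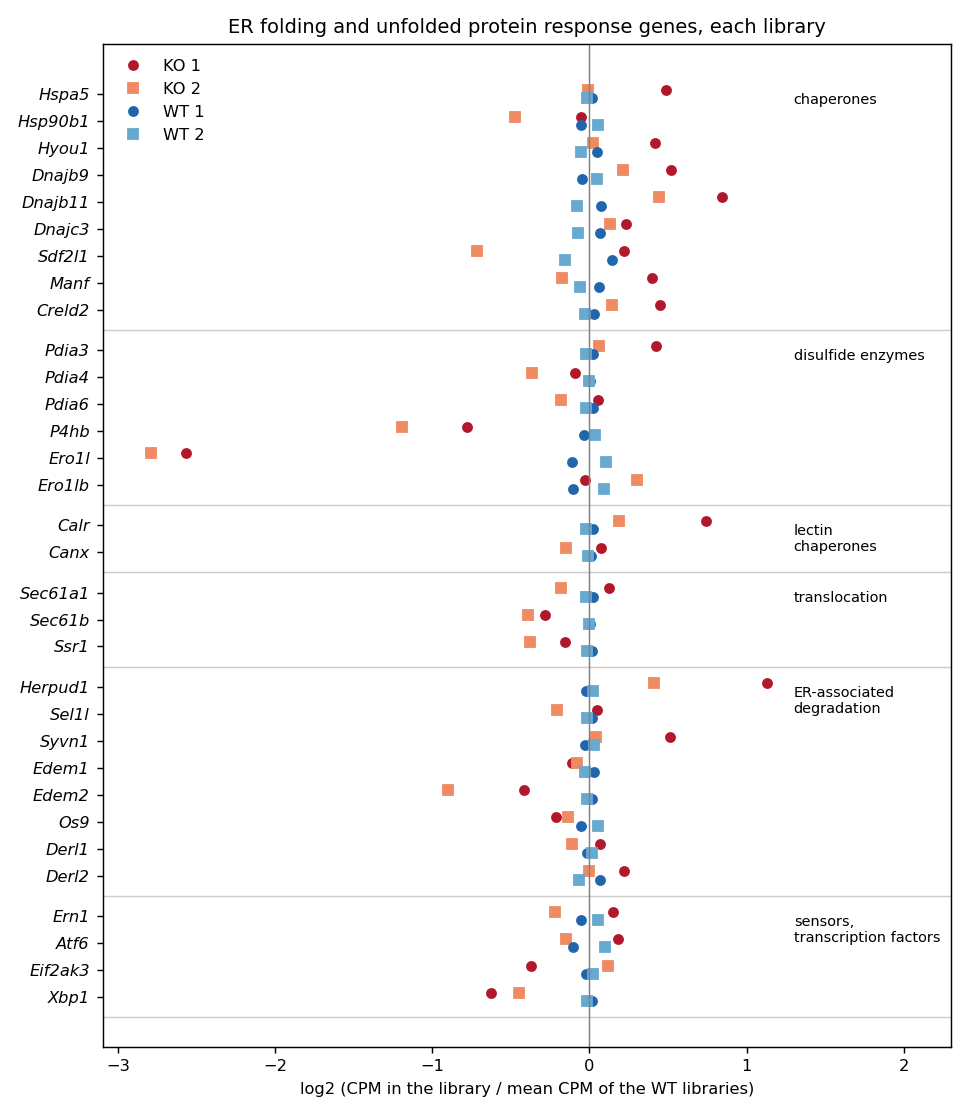
Each row is 1 of the 32 members, grouped by role, and the horizontal axis is the log2 ratio of its CPM in a library to the mean CPM of the WT libraries; KO libraries (red and orange) are drawn above WT libraries (blues). Ero1l and P4hb lie far to the left in both KO libraries, and KO 1 lies to the right of KO 2 for 27 of the 32 genes.

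Ero1l, the gene of the oxidase that passes electrons from protein disulfide isomerase to oxygen, had the largest change of the 32 members. RefSeq calls it Ero1a, and it lies on chromosome 14 (45283087 to 45318572, GRCm38.p6). It had 219.8 CPM in KO 1 and 188 in KO 2, against 1207 in WT 1 and 1402 in WT 2. Both KO libraries lay far below both WT libraries. The mean was 204 ± 22.1 CPM in KO and 1304 ± 138 in WT (SD, n = 2 each), a 6.39-fold lower level (log2 fold change -2.68 ± 0.17 SE, adjusted p = 0.00225, edgeR). The call held without any one of the 4 libraries, with DESeq2, with library-size scaling and with limma on log2(TPM + 1), and its log2 fold change stayed between -2.79 and -2.57 when either KO library was left out. Per length, in TPM, transcripts per 1000000 transcripts, Ero1l was 89.6 ± 13.9 in KO and 532 ± 44.1 in WT, so that it ranked number 13 of the members in KO and number 2 in WT. It made up 2.12% and 2.35% of the summed TPM of the members in KO 1 and KO 2, against 11.5% and 13.1% in WT 1 and WT 2.

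Its close relative Ero1lb (Ero1b in RefSeq), an oxidase best known from pancreatic beta cells, was the lowest of the members per length. Ero1lb had 9.97 CPM in KO 1 and 12.6 in KO 2, against 9.49 in WT 1 and 10.9 in WT 2, and the groups overlapped. Its log2 fold change was 0.15 (95% interval -0.38 to 0.67, adjusted p = 0.673, edgeR). Ero1l exceeded Ero1lb in TPM by 20-fold and 12.7-fold in KO 1 and KO 2, against 109-fold and 114-fold in WT 1 and WT 2.

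P4hb encodes protein disulfide isomerase itself, the main substrate of the Ero1 oxidases and also a subunit of collagen prolyl hydroxylase (chromosome 11, 120560298 to 120573253). It had 467 CPM in KO 1 and 351 in KO 2, against 783 in WT 1 and 819 in WT 2, with no overlap. The mean was 409 ± 82.3 CPM in KO and 801 ± 25.5 in WT (SD, n = 2 each; log2 fold change -0.97 ± 0.18 SE, adjusted p = 0.0283, edgeR). Its call was lost without WT 1 (adjusted p = 0.108), without WT 2 (0.1501) and with limma on log2(TPM + 1) (0.0541), while its log2 fold change was -1.002 without WT 1 and -0.94 without WT 2. In WT P4hb was the most abundant member per length at 573 ± 5.20 TPM, and in KO it ranked number 3 at 315 ± 77.9 TPM. The ratio of Ero1l to P4hb in TPM was 0.269 and 0.307 in KO and 0.880 and 0.977 in WT, so Ero1l was lower by more than its substrate.

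The other isomerases changed less than P4hb and did not pass the test. Pdia3 (ERp57), which works on glycoproteins with calnexin and calreticulin, had 531 and 413 CPM in KO against 403 and 389.8 in WT (log2 fold change 0.25, adjusted p = 0.351, edgeR). Pdia4 (ERp72) had 117 and 96.9 CPM in KO against 125 and 125 in WT (-0.22, 95% interval -0.55 to 0.11, adjusted p = 0.311, edgeR). Both KO values lay above both WT values for Pdia3 and below them for Pdia4. Pdia6, which also binds the sensor IRE1, had 192 and 163 CPM in KO against 188 and 182 in WT (-0.06, adjusted p = 0.794), and its sign turned with library-size scaling (0.040). Summed over the 6 enzymes of disulfide formation, the level was 1537 and 1225 CPM in KO against 2715 and 2928 in WT, a gap that lies in Ero1l and P4hb.

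**Figure D2:**
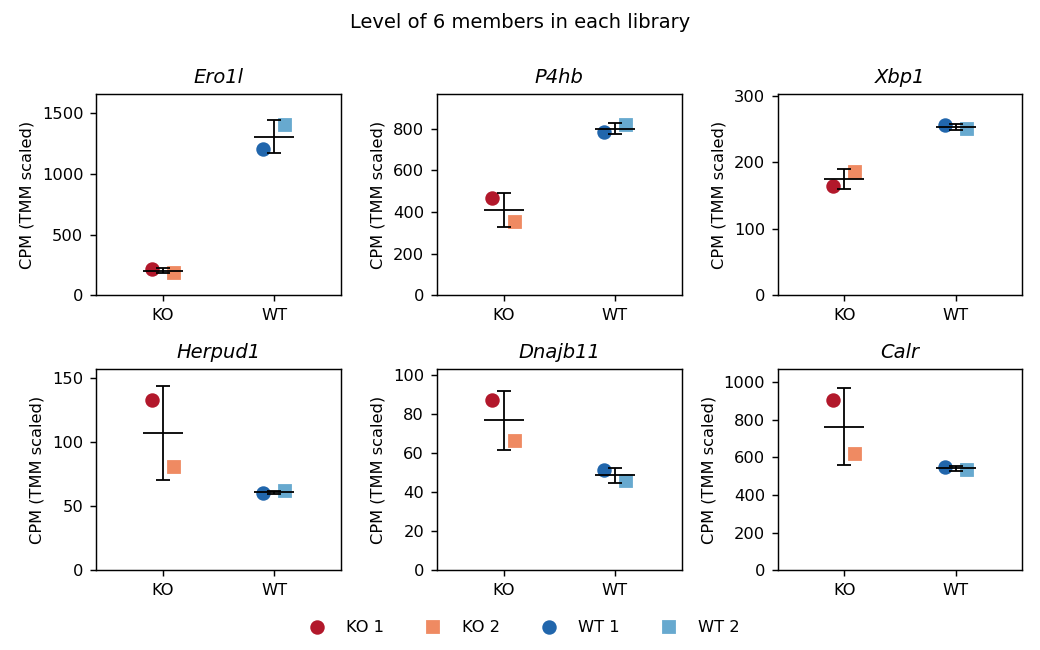
Each panel shows 1 gene; points are the CPM (TMM scaled) of KO 1, KO 2, WT 1 and WT 2, and the horizontal line and bar are the mean and SD of the 2 libraries of a genotype. Ero1l, P4hb and Xbp1 lie lower in both KO libraries than in WT, while Herpud1, Dnajb11 and Calr lie higher and differ more between KO 1 and KO 2 than between the WT libraries.

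The promoters of Ero1l and P4hb are shown because these were the larger falls and because Ero1l is known to be induced by the hypoxia-inducible factor in mammalian cells. The RefSeq windows (GRCm38.p6, 250 bases before to 50 after the start site, read along the gene) were searched on both strands for the hypoxia response core, ACGTG or GCGTG. Capitals mark each match, which reads CACGT or CACGC where it lies on the opposite strand.
Ero1l, chr14:45318523-45318822, minus strand: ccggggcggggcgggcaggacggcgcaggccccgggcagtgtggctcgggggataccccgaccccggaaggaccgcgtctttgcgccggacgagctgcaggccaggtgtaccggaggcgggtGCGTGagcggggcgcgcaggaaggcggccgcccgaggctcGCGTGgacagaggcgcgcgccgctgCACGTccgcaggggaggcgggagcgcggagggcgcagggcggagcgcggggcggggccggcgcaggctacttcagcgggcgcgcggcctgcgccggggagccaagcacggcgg
P4hb, chr11:120573204-120573503, minus strand: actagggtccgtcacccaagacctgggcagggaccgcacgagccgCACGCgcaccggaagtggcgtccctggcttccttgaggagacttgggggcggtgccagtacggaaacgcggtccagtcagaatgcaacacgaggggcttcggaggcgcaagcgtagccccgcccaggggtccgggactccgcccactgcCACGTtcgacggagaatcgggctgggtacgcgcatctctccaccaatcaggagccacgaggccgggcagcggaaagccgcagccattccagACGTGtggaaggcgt
Ero1l held 1 match to ACGTG and 2 to GCGTG, and P4hb held 2 and 1. These letters are common: of 27025 genes with a window, 21.8% held ACGTG and 35.2% held GCGTG. Of the 27 members with a window, 40.7% held the first and 66.7% the other. The window of Xbp1, also called lower, held neither core, and that of Ssr1, which was not called, held 3 of each. A match describes the sequence and does not show binding. A link between these cores and the falls was not tested.

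Xbp1 encodes the transcription factor made from the IRE1-spliced mRNA (chromosome 11, 5520641 to 5525993). It had 164 CPM in KO 1 and 186 in KO 2, against 257 in WT 1 and 250.4 in WT 2. Both KO values lay below both WT values. The mean was 175 ± 15.2 CPM in KO and 254 ± 4.44 in WT (SD, n = 2 each; log2 fold change -0.53 ± 0.12 SE, adjusted p = 0.0465, edgeR). Its call was lost without WT 1 (adjusted p = 0.363), without WT 2 (0.362), with library-size scaling (0.0706) and with limma on log2(TPM + 1) (0.0937), while its log2 fold change was -0.52 without WT 1 and -0.55 without WT 2. The counts are per gene and do not tell spliced from unspliced Xbp1 mRNA.

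On average the 3 sensor genes lay close to their WT levels, but in each KO 1 and KO 2 lay on opposite sides of both WT values. Ern1 had 15.8 and 12.2 CPM in KO against 13.7 and 14.8 in WT (log2 fold change -0.02, 95% interval -0.51 to 0.46). Atf6 had 79.5 and 63.1 CPM in KO against 65.2 and 74.9 in WT (0.03, 95% interval -0.37 to 0.42). Eif2ak3 had 34.5 and 48.4 CPM in KO against 43.9 and 45.2 in WT (-0.10, 95% interval -0.56 to 0.35). None passed the test (edgeR adjusted p = 0.946 for Ern1, 0.928 for Atf6 and 0.734 for Eif2ak3), and in each the groups overlapped. Their signs were not stable: that of Ern1 turned with library-size scaling (0.073) and that of Atf6 turned without WT 1 (-0.071). That of Eif2ak3 turned without KO 1 (0.12, against -0.37 without KO 2).

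Among the 9 chaperone and cochaperone genes, 0 were called in either direction (edgeR), where 13.4% of all genes tested were. At an unadjusted p under 0.05 (edgeR), 1 was higher and 0 lower, against 1914 and 2100 of all 12680 genes. DESeq2 called 1 higher, against 7.79% of all genes. The median log2 fold change of the 9 genes was 0.23. That median was 0.02 without KO 1 and 0.41 without KO 2. Dnajb11 (ERdj3), a cochaperone that brings unfolded chains to BiP, had 87.5 and 66.3 CPM in KO against 51.3 and 46.1 in WT. The groups did not overlap, and the log2 fold change was 0.66 ± 0.17 SE (adjusted p = 0.0599, edgeR). It passed with DESeq2 (adjusted p = 0.0142) and with library-size scaling (0.0414). Hspa5, the gene of BiP, had 473 CPM in KO 1 and 334 in KO 2, against 340.4 in WT 1 and 333 in WT 2. Only KO 1 stood above WT, and the log2 fold change was 0.26 ± 0.19 SE (adjusted p = 0.402), 0.48 without KO 2 and -0.0074 without KO 1. Hsp90b1 (GRP94), the ER form of HSP90, had 498 and 373 CPM in KO against 498 and 536 in WT (-0.25, adjusted p = 0.400).

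The remaining chaperone genes gave the same picture of KO 1 above KO 2. Hyou1, the nucleotide exchange factor of BiP, had 189 and 143 CPM in KO against 146 and 136 in WT (log2 fold change 0.23, adjusted p = 0.377, edgeR). Sdf2l1, a partner of Dnajb11, had 40.9 and 21.3 CPM in KO against 38.7 and 31.5 in WT. KO 1 and KO 2 thus enclosed both WT values of Sdf2l1. Manf, a secreted ER stress protein, had 142 and 95.4 CPM in KO against 112 and 103 in WT, and Creld2 had 33.0 and 26.7 in KO against 24.7 and 23.7 in WT. The cochaperones Dnajb9 (ERdj4, 17.2 and 13.9 CPM in KO against 11.6 and 12.4 in WT) and Dnajc3 (88.1 and 82.1 against 78.7 and 71.5) did not overlap between genotypes. None of these 6 genes passed, with adjusted p-values between 0.235 and 0.743 (edgeR).

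Calr, the gene of calreticulin, was the most abundant member per length in KO, at 771 ± 241 TPM, and ranked number 3 in WT at 508 ± 24.0 TPM. It had 906 CPM in KO 1 and 617 in KO 2, against 551 in WT 1 and 532 in WT 2. The groups did not overlap, but the KO libraries differed by more than the gap between KO 2 and WT (log2 fold change 0.49 ± 0.21 SE, adjusted p = 0.180, edgeR). Its membrane-bound partner Canx (calnexin) had 380.1 and 327 CPM in KO against 365 and 359 in WT (-0.03, adjusted p = 0.888), with a sign that turned under library-size scaling (0.063).

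The genes of the translocation channel, through which new chains enter the ER, did not pass the test. Sec61a1, the pore subunit, had 218 and 177 CPM in KO against 203 and 198 in WT (log2 fold change -0.02, adjusted p = 0.938, edgeR; 0.077 with library-size scaling). Sec61b had 56.0 and 52.0 CPM in KO against 68.4 and 68.0 in WT (-0.34 ± 0.11 SE, 95% interval -0.62 to -0.055, adjusted p = 0.109). Ssr1, a subunit of the translocon-associated complex, had 177 and 152 CPM in KO against 199 and 196 in WT (-0.26, adjusted p = 0.223). Both KO values of Sec61b and of Ssr1 lay below both WT values without passing the test.

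In ER-associated degradation 0 of 8 genes were called (edgeR), where 13.4% of all genes tested were called in either direction. At an unadjusted p under 0.05 (edgeR), 1 was higher and 1 lower, against 1914 and 2100 of all 12680 genes. Herpud1, which organises the ubiquitin ligase complex and is one of the genes most readily induced by ER stress, had 133 CPM in KO 1 and 80.8 in KO 2, against 59.9 in WT 1 and 61.5 in WT 2. Both KO libraries were higher, and KO 1 far more so (log2 fold change 0.81 ± 0.24 SE, adjusted p = 0.0838, edgeR; 1.12 without KO 2 and 0.41 without KO 1). DESeq2 called it (adjusted p = 0.0118). Edem2, the mannosidase that begins the trimming of condemned glycoproteins, had 80.6 and 57.8 CPM in KO against 109 and 107 in WT (-0.64 ± 0.18 SE, adjusted p = 0.0738, edgeR, and 0.0185 with DESeq2). Edem1, a related protein, had 213 and 218 CPM in KO against 234 and 225 in WT.

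The ligase gene and the remaining genes of this pathway did not pass the test. Syvn1 (HRD1), the ubiquitin ligase, had 97.7 and 70.6 CPM in KO against 67.1 and 70.1 in WT (log2 fold change 0.30, adjusted p = 0.313, edgeR). Both KO values of Syvn1 lay above both WT values, KO 2 by little, and the log2 fold change was 0.51 without KO 2. Its adaptor Sel1l had 87.6 and 73.3 CPM in KO against 85.7 and 83.7 in WT, and the lectin gene Os9 had 142 and 149.9 in KO against 159 and 171 in WT. The derlin genes Derl1 (113 and 99.5 CPM in KO against 106 and 109 in WT) and Derl2 (36.2 and 31.1 against 32.6 and 29.6) overlapped between genotypes. None of these passed, and the adjusted p-values of Edem1, Sel1l, Os9, Derl1 and Derl2 lay between 0.347 and 0.938 (edgeR).

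Of the 27 members with a promoter window, 11 held an element bound by factors of the unfolded protein response. The list was chosen for genes of this response, which ATF6 and XBP1 are known to raise. A high share among them was therefore likely beforehand and is not an independent result. The shares over all genes count every gene with a window, expressed or not. The ER stress response element (ERSE), bound by ATF6 and XBP1 together with the factor NF-Y, reads CCAAT, then any 9 bases, then CCACG. ERSE-II reads ATTGG, then 1 base, then CCACG. Both were searched on both strands of the RefSeq windows, of which 27 members had one. Exact ERSE matches were found in 9 of the 27 members (33.3%), against 37 of 27025 genes (0.137%). ERSE-II was found in 2 of 27 members (7.41%), against 12 of 27025 genes (0.0444%). The 12 sites are printed along the strand of the element, with 10 bases on each side and both fixed parts in capitals.
Hspa5, ERSE, chr2:34772015-34772053, plus strand: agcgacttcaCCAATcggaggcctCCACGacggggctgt
Hsp90b1, ERSE, chr10:86705523-86705561, plus strand: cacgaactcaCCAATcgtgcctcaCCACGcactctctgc
Hsp90b1, ERSE, chr10:86705628-86705666, minus strand: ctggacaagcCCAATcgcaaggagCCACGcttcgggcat
Dnajc3, ERSE, chr14:118937817-118937855, plus strand: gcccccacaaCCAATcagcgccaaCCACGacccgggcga
Creld2, ERSE, chr15:88819510-88819548, minus strand: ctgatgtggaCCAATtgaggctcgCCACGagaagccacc
Pdia6, ERSE, chr12:17266481-17266519, plus strand: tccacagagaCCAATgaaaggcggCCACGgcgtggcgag
Ero1lb, ERSE, chr13:12565672-12565710, minus strand: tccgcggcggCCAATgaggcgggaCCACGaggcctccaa
Calr, ERSE, chr8:84847065-84847103, plus strand: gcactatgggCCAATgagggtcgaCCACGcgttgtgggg
Canx, ERSE, chr11:50325790-50325828, minus strand: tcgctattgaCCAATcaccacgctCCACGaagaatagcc
Syvn1, ERSE, chr19:6046522-6046560, plus strand: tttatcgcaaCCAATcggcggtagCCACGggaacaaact
Dnajb11, ERSE-II, chr16:22857842-22857872, plus strand: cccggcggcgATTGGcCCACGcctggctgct
Herpud1, ERSE-II, chr8:94386367-94386397, plus strand: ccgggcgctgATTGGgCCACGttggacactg
The 2 genes with ERSE-II, Dnajb11 and Herpud1, were those with the largest positive log2 fold changes of the members (0.66 and 0.81), and neither passed the test. The windows of Ero1l, P4hb and Xbp1, the 3 genes that fell, held neither element in this exact form. The same was true of most of the 27 members with a window. The log2 fold changes of the 9 genes with ERSE lay between -0.25 (Hsp90b1) and 0.49 (Calr). A link between element and direction was not tested. A UPR element core, TGACGTG, was found in 1 of 27 members, Hspa5, and in 2.22% of all genes. Hyou1, Manf, Sec61a1, Derl1 and Atf6 were not searched. The tail CCACG overlaps the hypoxia core where the next base is C (CACGC) or T (CACGT), as in Hsp90b1, Calr, Dnajb11 and Herpud1.

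**Figure D3:**
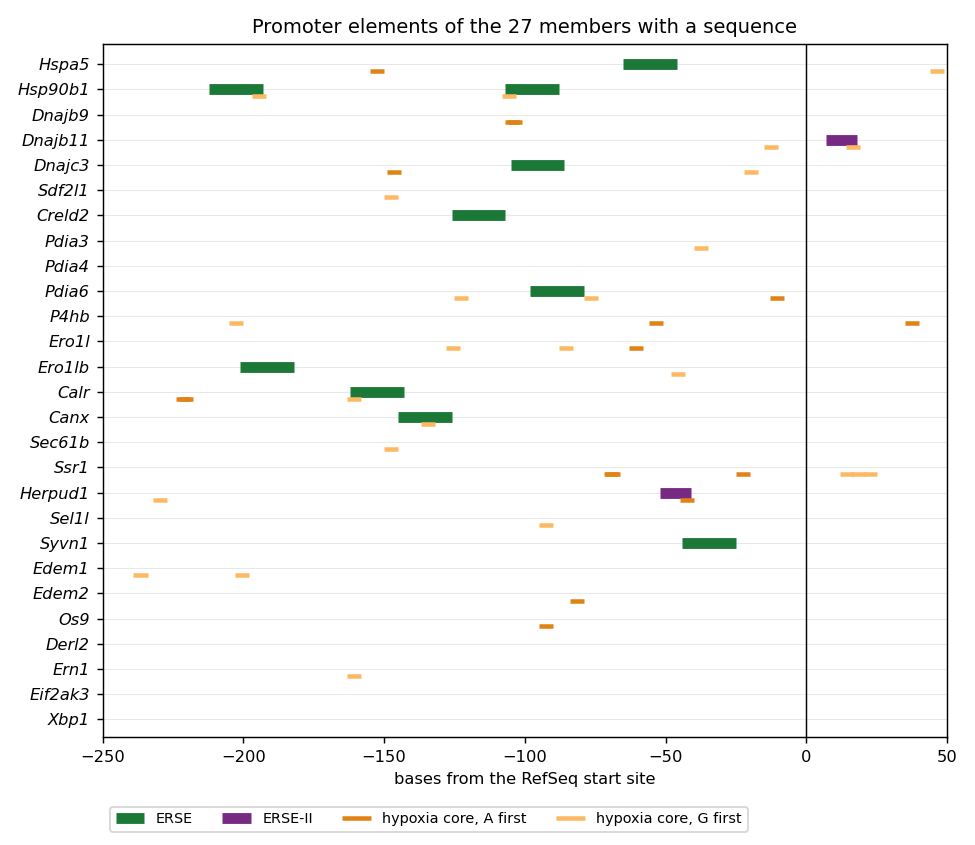
Rows are the 27 members with a RefSeq promoter window and the horizontal axis is the distance in bases from the start site (vertical line); green bars are ERSE, purple bars ERSE-II and orange bars the hypoxia cores that begin with A (dark) or G (light). Of the 27 genes 11 hold an ERSE or ERSE-II, and 21 hold at least 1 hypoxia core.

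The KO libraries differed from each other in this set more than the WT libraries did. The level in KO 1 was above that in KO 2 for 27 of 32 members (84.4%), where this held for 49.8% of all genes tested. The median ratio of KO 1 to KO 2 was 1.24 over the members and 0.998 over all genes, while the median ratio of WT 1 to WT 2 was 1.02 and 0.995. WT 1 was above WT 2 for 20 of 32 members (62.5%), against 48.1% of all genes. All 9 chaperone genes were higher in KO 1, with ratios between 1.07 (Dnajc3) and 1.92 (Sdf2l1), and the exceptions among the 32 were Ero1lb, Edem1, Os9, Eif2ak3 and Xbp1. The lean was not particular to the members: KO 1 was above KO 2 for 28 of 32 cytosolic heat shock and chaperonin genes (87.5%), with a median ratio of 1.22. The list of stress output and sensor regulators did not share this lean as a whole, with KO 1 above KO 2 for 18 of 34 genes (52.9%) and a median ratio of 1.04. Single genes of that list differed widely between the KO mice. Atf4 had 581 and 294 CPM in KO 1 and KO 2, against 309 and 331 in WT, Trib3 had 34.9 and 10.4 against 23.7 and 26.1, and Chac1 had 26.8 and 5.32 against 7.18 and 6.33. Ddit3 leaned the other way, with 18.9 CPM in KO 1 and 21.7 in KO 2. CD8 T and NK cell markers were also higher in KO 1 than in KO 2 and myeloid markers lower, as given above, and the part of either in this difference was not tested.

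**Figure D4:**
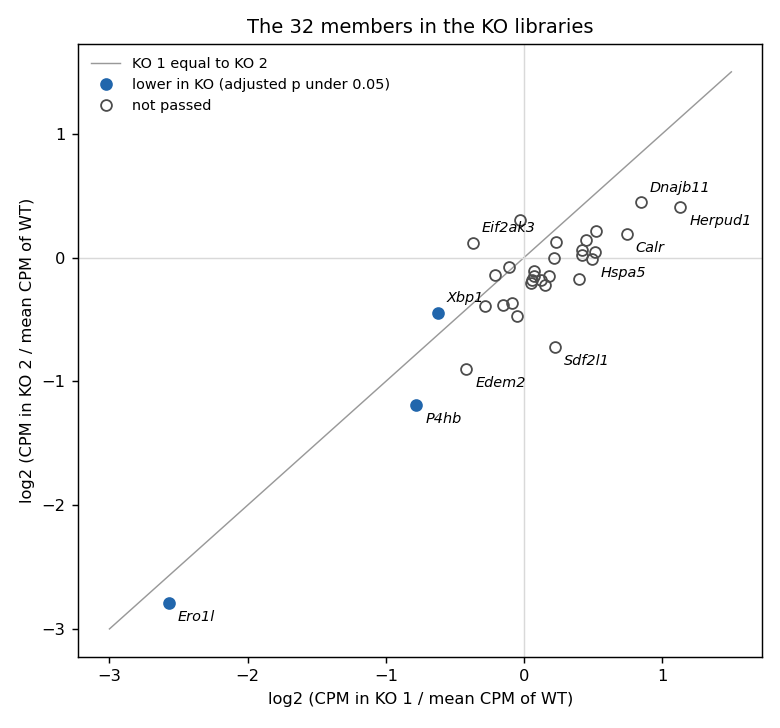
Each point is 1 of the 32 members, with the log2 ratio of its CPM to the WT mean in KO 1 on the horizontal axis and in KO 2 on the vertical axis; filled points were called lower in KO. Most points lie below the diagonal, and KO 1 was above KO 2 for 27 of 32 members.

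Set against both WT libraries, each KO library alone gave a different account of the chaperones. With KO 1 alone, 10 members were called higher (Hspa5, Hyou1, Dnajb9, Dnajb11, Manf, Creld2, Pdia3, Calr, Herpud1 and Syvn1) and 6 lower, against 22.4% and 24.1% of all genes. With KO 2 alone, 2 were called higher (Dnajb11 and Herpud1) and 9 lower, against 17.5% and 19.1% of all genes. Ero1l, P4hb, Xbp1, Edem2 and Sec61b were lower with either KO library. The others called lower with KO 2 alone were Hsp90b1, Sdf2l1, Pdia4 and Ssr1, with log2 fold changes of -0.47, -0.72, -0.36 and -0.38. With KO 1 alone their values were -0.06, 0.22, -0.10 and -0.16. Eif2ak3 was the other gene called lower with KO 1 alone (-0.37, against 0.12 with KO 2 alone). With both KO libraries and 1 WT library, Ero1l was the 1 member called, whichever WT library was left out. In these edgeR fits the lone library of a genotype is assumed to vary like the libraries of the other genotype, and the difference between the KO mice was not tested.

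Around the members, other genes of the secretory pathway (4 lists) were called lower or not at all (edgeR). Of all genes tested 8.23% were called lower and 5.14% higher, and 2100 were lower and 1914 higher at an unadjusted p under 0.05. DESeq2 called 10.3% of all genes lower and 7.79% higher. Of 42 genes of transport between ER and Golgi 7 fell and 0 rose (edgeR; 14 lower and 2 higher at an unadjusted p under 0.05, and 8 and 0 with DESeq2), and the median log2 fold change was -0.16. The 7 included all 3 KDEL receptor genes, whose products return escaped ER chaperones from the Golgi. Kdelr3 had 0.823 and 0.547 CPM in KO against 5.43 and 7.79 in WT (-3.26 ± 0.39 SE, adjusted p = 0.00909). Kdelr1 had 106 and 103 CPM in KO against 147 and 165 in WT (-0.57, adjusted p = 0.0349), and Kdelr2 had 64.5 and 60.1 in KO against 89.1 and 92.8 in WT (-0.55, adjusted p = 0.0356). In all 3 genes both KO values lay below both WT values, as in 25 of the 42 genes of this list and 31.4% of all genes tested. The coat gene Sec24d (-1.10, adjusted p = 0.0101) and the Golgi tether gene Golgb1 (-0.66, adjusted p = 0.0240) fell as well, and so did Arfgap3 and Cope (-0.93 and -0.44), which were named after their values were seen. The calls of Kdelr1, Kdelr2 and Golgb1 were lost without WT 1 (0.177, 0.266 and 0.133) and without WT 2 (0.403, 0.371 and 0.252), those of Arfgap3 and Cope were lost without either WT library too, and those of Kdelr3 and Sec24d were kept.

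Of 44 other genes of folding and glycan quality control 1 fell and 0 rose (edgeR; 4 lower and 2 higher at an unadjusted p under 0.05, and 2 and 0 with DESeq2). The fall was that of Prdx4, the ER peroxiredoxin that uses hydrogen peroxide to oxidise disulfide isomerases, with 29.1 and 33.3 CPM in KO against 50.8 and 53.3 in WT (log2 fold change -0.74, adjusted p = 0.0235, and 0.127 without WT 1 and 0.195 without WT 2). Of 42 genes of targeting, translocation and N-glycosylation 2 fell and 0 rose (edgeR; 5 lower and 4 higher at an unadjusted p under 0.05, and 3 and 2 with DESeq2). They were Ssr3, a partner of Ssr1 (235 and 247 CPM in KO against 357 and 417 in WT, -0.68, adjusted p = 0.0330), and the oligosaccharyltransferase gene Tusc3 (-0.59, adjusted p = 0.0329). Both calls were lost without WT 1 (0.142 and 0.283) or WT 2 (0.370 and 0.259). Of 33 other genes of ER-associated degradation 0 were called (edgeR, and 0 with DESeq2; 2 higher and 2 lower at an unadjusted p under 0.05). The medians of these 3 lists were -0.03, -0.03 and 0.07.

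Among 34 genes of stress output and sensor regulation 4 rose and 6 fell, where 13.4% of all genes were called in either direction, and the median was -0.02. The genes used most often as readouts of ER stress did not pass: Ddit3 (CHOP) had 18.9 and 21.7 CPM in KO against 22.6 and 30.6 in WT (log2 fold change -0.39, adjusted p = 0.240, edgeR), and Atf4, Trib3 and Chac1 had adjusted p-values of 0.383, 0.883 and 0.287. Ppp1r15a (GADD34), the phosphatase subunit that ends PERK signalling, fell (39.5 and 30.1 CPM in KO against 56.0 and 58.1 in WT, -0.71, adjusted p = 0.0450, and 0.159 without WT 1 and 0.2202 without WT 2). Atf3 rose (25.6 and 24.3 CPM in KO against 12.4 and 14.4 in WT, 0.90, adjusted p = 0.0248, a call lost at 0.221 without WT 1 and at 0.124 without WT 2). Stc2, a secreted glycoprotein gene induced by ER stress and by hypoxia, fell (5.91 and 3.13 CPM in KO against 28.4 and 38.2 in WT, -2.88, adjusted p = 0.00902). The death genes Bbc3 (2.01, adjusted p = 0.00989) and Bax (1.04, adjusted p = 0.00646), which are also p53 targets, rose. Named after their values were seen, Atf6b, the relative of Atf6, rose (0.50, adjusted p = 0.0484), and Wipi1, Bcl2l11, Cdk5rap3 and Ppp1r1b fell (-2.17, -0.91, -0.60 and -1.60). These 5 calls were lost without WT 2, and all but that of Wipi1 also without WT 1.

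**Figure D5:**
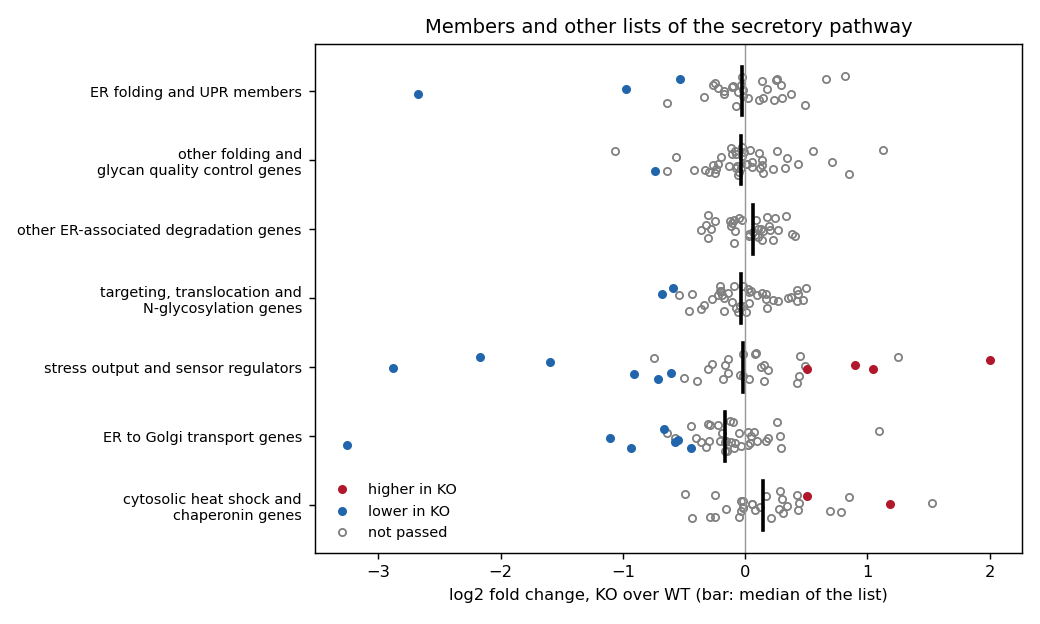
Each point is 1 gene tested, the horizontal axis is its log2 fold change of KO over WT, and rows are the 32 members and 6 other lists; red points were called higher in KO, blue points lower, open points did not pass, and black bars are medians. The median lies between -0.16 (ER to Golgi transport) and 0.15 (cytosolic heat shock and chaperonin genes), and single genes such as Ero1l and Kdelr3 lie far from it.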

How the data were processed

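RNA of 4 libraries, 1 per mouse, was sequenced on a BGISEQ platform, per the labels' protocols. Per the submitters' processing notes, RSEM 1.2.12, HISAT2 2.0.4, Bowtie2 2.2.5 and the build GRCm38.p6 are listed, without their roles. The kit, its strandedness and the annotation were not given in the sources used here. Where genes overlap, also in antisense, their reads may therefore be mixed. Per the file headers, the deposited table holds each gene's RSEM expected count (not normalized), its FPKM (per length and library) and its TPM, which summed to 1000000 in each library. The deposited TPM and FPKM were proportional within 0.072%. Reads shared with other genes were divided by the authors' model, and 8 members (Derl2, Dnajb11, Edem2, Ero1lb, Sdf2l1, Sec61a1, Ssr1 and Syvn1) had counts that were not whole.

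Expected counts were rounded, filtered with filterByExpr (minimum count 10, minimum total 15; 12680 genes kept, 5241 removed), TMM scaled and fitted in edgeR 4.0.16 (R 4.3.3; quasi-likelihood test, robust, genotype as the single term, 2 residual degrees of freedom plus a median prior of 3.58). DESeq2 1.42.0 and limma 3.58.1, on log2(TPM + 1) of the deposited TPM with a pseudocount of 1, served as alternatives, beside other scalings, filters and libraries left out. The edgeR steps were tested on simulated counts with known fold changes and the same dispersion for every gene. Those counts held no difference between mice of a genotype that is shared across genes. That test therefore does not give the error rate in these libraries. The F statistic gave standard errors and 95% intervals of each log2 fold change. Levels between genes are compared in TPM. Coordinates and promoters are RefSeq's for GRCm38.p6, matched by gene ID (17787 of 17921 genes). For 23 genes a symbol turned into a date was restored through its ID.

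The members, the other lists, the alternatives and the rule for named genes were chosen with earlier results of these data known. The rule names all 32 members, Mapkapk5, 8 further genes (Ddit3, Atf4, Atf3, Trib3, Ppp1r15a, Chac1, Kdelr2 and Prdx4) and up to 4 called genes of each other list with the smallest p-values. Of the genes asked for in the other lists, Mia2, Trac, Trbc1, Trbc2, Ighm, Ighd and Igkc were not analysed here. Protein sequences were not used here. No set test was made.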

Additional observations from a re-analysis of the deposited data

How the results depend on the processing

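Each genotype had 2 mice, and libraries held 19418012 to 20125124 counts. Ero1l was called lower under every alternative run. RLE size factors, the filter at a mean of 5 CPM and no filter on low counts changed no call of a member.

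The counts of called members moved most with the library left out. Leaving out 1 library at a time gave 0 to 10 members higher and 1 to 9 lower, and 182 to 2836 of all genes higher and 385 to 3058 lower. For the other lists these ranges were 0 to 5 higher and 0 to 8 lower (folding and glycan quality control), 0 to 5 and 0 to 5 (ER-associated degradation), 0 to 7 and 0 to 9 (translocation and glycosylation), 2 to 10 and 1 to 10 (stress output), 0 to 2 and 2 to 16 (ER to Golgi transport), and 0 to 18 and 0 to 5 (heat shock and chaperonin). DESeq2 called 988 genes higher and 1308 lower. Higher were 2 members, 2 translocation, 4 stress output and 6 heat shock genes. Lower were 4 members, 2 folding, 3 translocation, 7 stress output and 8 transport genes and 1 heat shock gene. Library-size scaling called 1 member (Dnajb11), 2 translocation, 4 stress output and 3 heat shock genes higher. It called 2 members, 1 folding gene, 2 translocation, 2 stress output and 3 transport genes lower. With limma on log2(TPM + 1), 1 folding gene, 3 stress output genes and 1 heat shock gene were higher. In that fit 1 member, 2 folding, 0 translocation, 3 stress output and 2 transport genes were lower. The filter at 5 CPM left 1 heat shock gene higher. The causes were not tested.

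Mouse numbers are shared between genotypes but name different animals, and same-numbered libraries deviated together only weakly (r = 0.175 across genes, which are not independent replicates). With the mouse number as a replicate block, 1338 genes were higher and 1597 lower. Members were 2 higher and 4 lower, folding genes 1 and 2, and translocation genes 3 and 4. Stress output genes were 6 higher and 8 lower, transport genes 0 and 10, and heat shock genes 9 and 0.

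Signs turned in genes that did not pass the test with all 4 libraries. With library-size scaling the log2 fold changes were 0.040 (Pdia6), 0.063 (Canx), 0.077 (Sec61a1), 0.023 (Sel1l), 0.0026 (Edem1), 0.081 (Derl1) and 0.073 (Ern1). With limma on log2(TPM + 1) they were 0.037, 0.061, 0.071, 0.023, 0.0013, 0.079 and 0.057 for the same genes, and 0.012 for Eif2ak3. Leaving out 1 library at a time gave -0.0074 to 0.48 for Hspa5, -0.72 to 0.22 for Sdf2l1, -0.17 to 0.39 for Manf, -0.18 to 0.051 for Pdia6, -0.034 to 0.31 for Ero1lb, -0.14 to 0.067 for Canx, -0.18 to 0.12 for Sec61a1, -0.21 to 0.045 for Sel1l, -0.11 to 0.066 for Derl1, -0.22 to 0.15 for Ern1, -0.15 to 0.18 for Atf6, -0.37 to 0.12 for Eif2ak3, -0.12 to 0.86 for Atf4, -1.25 to 0.48 for Trib3 and -0.34 to 1.98 for Chac1. In each of these the extremes were the values without KO 1 and without KO 2, and Trib3 was called in both, lower without KO 1 and higher without KO 2.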

Other observations

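The cytosolic and mitochondrial chaperones, which fold proteins outside the ER, were also described. Of 32 heat shock and chaperonin genes tested 2 rose and 0 fell (edgeR quasi-likelihood test), where 5.14% of all genes were called higher and 8.23% lower. At an unadjusted p under 0.05 (edgeR), 8 were higher and 2 lower, against 1914 and 2100 of all 12680 genes. DESeq2 called 6 higher and 1 lower, against 7.79% and 10.3% of all genes. The median log2 fold change of the list was 0.15. That median was -0.0027 without KO 1 and 0.33 without KO 2. Hsf1, the gene of the heat shock transcription factor, had 76.8 and 71.8 CPM in KO against 52.6 and 51.7 in WT (log2 fold change 0.51, adjusted p = 0.0419). Hspa1b, an inducible HSP70 gene with a near-identical copy, had 7.07 and 6.26 CPM in KO against 2.62 and 3.24 in WT (1.19, adjusted p = 0.0436). Both calls were lost without WT 1 (0.352 and 0.3505) or WT 2 (0.427 and 0.234). As for the ER chaperones, KO 1 was above KO 2 for most of these genes (28 of 32), and WT 1 was above WT 2 for 25 of 32. Over all genes tested these shares were 49.8% and 48.1%.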
